A study of Mus musculus with 8 samples.

Results

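The 43 genes described here encode the autophagy machinery, the mTOR complexes with their inputs, and AMP-activated protein kinase (AMPK). They were taken as a list of symbols and matched to the Ensembl identifiers of the deposited tables. All 43 were found among the 52636 genes of the tables, and all 43 were among the 20546 genes that passed a filter on low counts and were tested. RNA was measured by sequencing in whole lungs of wild type mice, which the study's methods give as male C57BL/6. Control mice received PBS into the trachea. The COPD mice model (COPD mice below) was given elastase from porcine pancreas (PPE) at 10 weeks of age and lipopolysaccharide (LPS) from 12 weeks of age, as a model of chronic obstructive pulmonary disease. Both were fed either the control diet or a diet with 2% TJ-41 from 8 weeks of age. TJ-41 is hochuekkito, a Japanese herbal medicine. The 4 groups of 2 libraries each were control mice on control diet, control mice on TJ-41, COPD mice on control diet and COPD mice on TJ-41. The age at which the lungs for sequencing were taken, the number of mice behind each library and any pooling of mice are not given in the sources used here. No source says that the 2 libraries of a group came from separate mice, so the p-values measure the spread between these libraries.

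Autophagy is the process by which a cell encloses its own proteins and organelles in a membrane, the autophagosome, and delivers them to the lysosome for breakdown. The kinase complex mTORC1 restrains it when nutrients are plentiful, whereas AMPK, which senses low energy, and the stress-induced proteins DDIT4 and the sestrins act against mTORC1. Much of this control works by phosphorylation, cleavage and lipidation of proteins, none of which is measured by RNA abundance. In the lung, autophagy has been studied in airway epithelium and in alveolar macrophages, and both cell types are part of a whole-lung sample.

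The libraries held 18767295 to 20888042 counts, so that 3 counts, taken as the limit that a count of 0 allows, corresponded to 0.153 to 0.162 CPM, the count scaled to a common library total after TMM normalization. This limit covers counting error only. The least abundant member in any library was Ddit4 at 8.06 CPM, so the spread between libraries and not the depth set the precision. The 18 genes of the lung identity list were all detected, with a summed level of 38730 to 73720 CPM. A single library stood apart, namely replicate 2 of COPD mice on control diet, which also had the highest lung identity sum. In that library 38.4% of all tested genes lay more than 0.5 log2 units from the mean of the other 7 libraries, against 10.3% to 18.2% in the rest.

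No member passed the test in any comparison. A gene was called at an adjusted p under 0.05 (the quasi-likelihood test of edgeR, adjusted by Benjamini-Hochberg over all tested genes) and a log2 fold change beyond 1. In COPD mice against control mice on control diet, 0 of 43 members were called, and 0.122% of all tested genes were. On TJ-41, 0 of 43 members and 0.0779% of genes were called for the same contrast. For TJ-41 against the control diet, 0 of 43 members were called in control mice (0% of genes) and 0 of 43 in COPD mice (0.00487% of genes). The difference between these 2 diet effects called 0 of 43 members and 0% of genes. The smallest adjusted p of any member was 0.462, 0.721, 0.996, 0.991 and 0.999 in these 5 comparisons in turn.

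At an unadjusted p under 0.05 the share of members lay below the share of all tested genes in each of the 5 comparisons. Below this limit was 1 member, Ddit4, for COPD mice on control diet, or 2.33% of the members against 7.7% of all tested genes. On TJ-41 it was again 1 member, Sesn2, against 6.56% of genes. TJ-41 in control mice gave 0 members, against 1.64% of genes, and TJ-41 in COPD mice gave 1, Atg9a, against 4.1% of genes. The difference between the diet effects gave 0 members, against 3.27% of genes. With DESeq2, 1 member (2.33%) passed the full criteria, Ddit4 in COPD mice on control diet, as did 172 of 35466 genes (0.485%). With 2 libraries against 2, an exact permutation test of a single gene cannot go below a two-sided p of 0.333, so none is given.

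The width of the intervals shows how large a difference could have gone unnoticed. The 95% confidence interval of the fold change lay wholly within 2-fold in either direction for 41 of 43 members in COPD mice on control diet, the exceptions being Ddit4 and Sesn2. It did so for 39 members in COPD mice on TJ-41, for 39 for TJ-41 in control mice and for 41 for TJ-41 in COPD mice. Within 1.5-fold, the numbers were 24, 19, 25 and 22 of 43. For the difference between the 2 diet effects, 34 intervals lay within 2-fold and 3 within 1.5-fold. Changes of 2-fold or more were therefore outside the interval for most members, and changes of less than 1.5-fold were not resolved for many of them. These intervals rest on a spread shared by all groups. The difference between the libraries of a group had a standard deviation over members of 0.541 log2 units in COPD mice on control diet and 0.101 in COPD mice on TJ-41. The intervals do not reflect the wider spread of the first group or the narrower spread of the second.

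**Figure D1:**
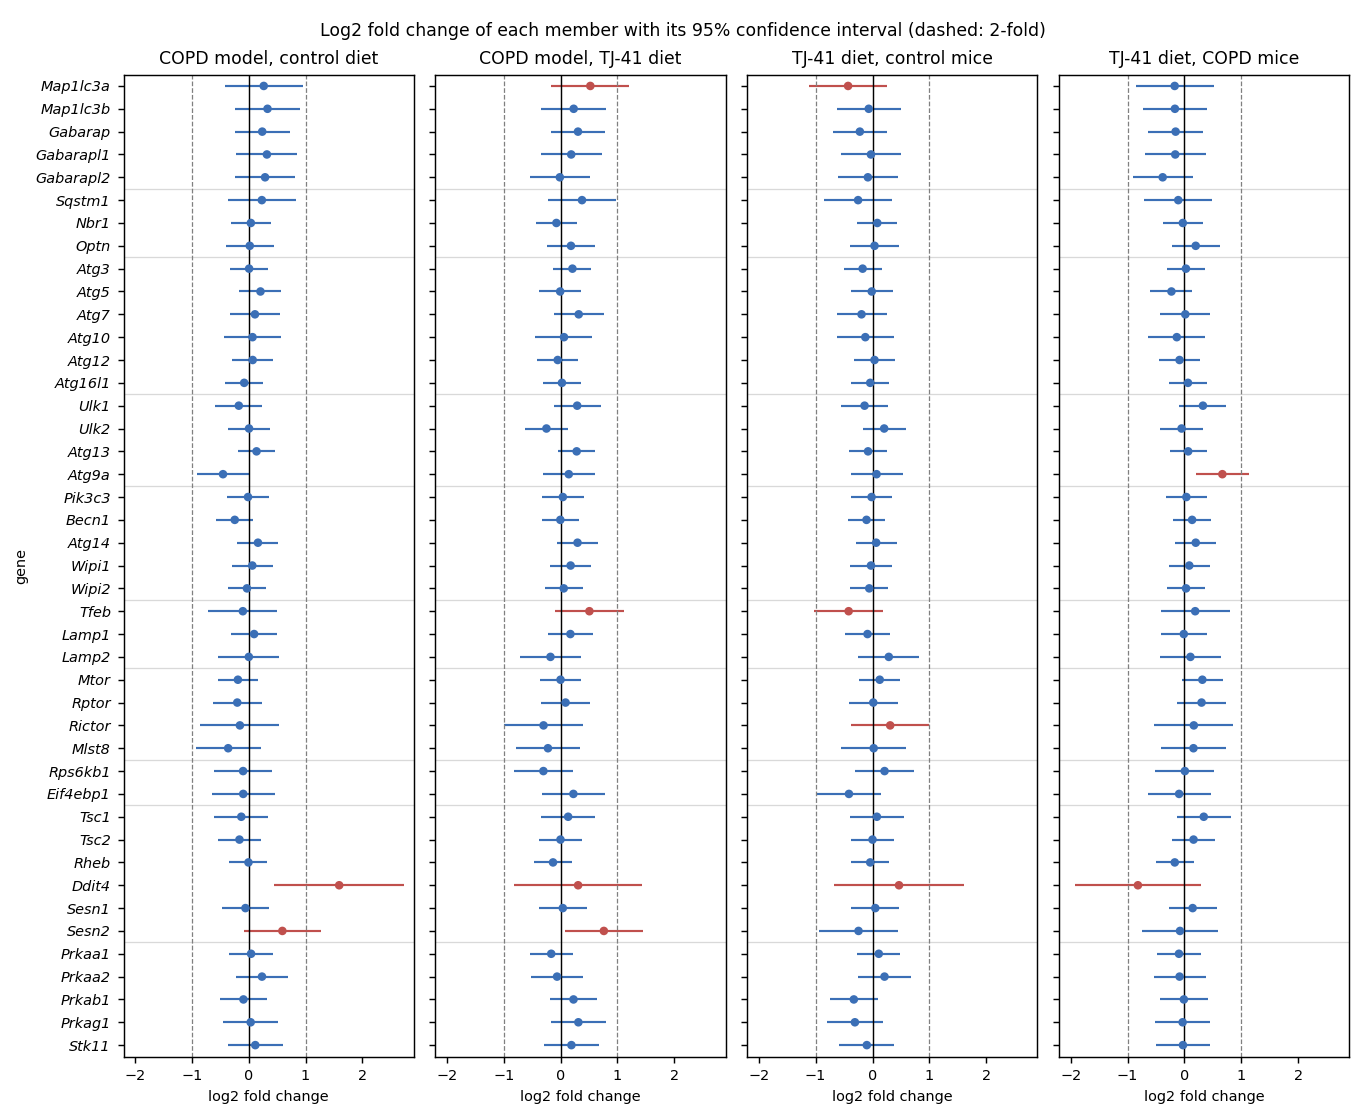
Log2 fold change (horizontal axis) of each of the 43 members (vertical axis, in order of role) with its 95% confidence interval from edgeR, in 4 panels for COPD mice on each diet and TJ-41 in each kind of mouse. Intervals that reach a 2-fold change (dashed lines) are red, as for Ddit4, whose estimate of 1.59 is the largest of the 4 panels.

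The members spanned a wide range of levels in the lung. Per kilobase of exon, the highest mean over the 8 libraries was that of Lamp1, a structural protein of the lysosomal membrane, at 301 RPKM. The lowest was Mlst8, a subunit shared by both mTOR complexes, at 2.71 RPKM. Among the 5 ubiquitin-like proteins that are attached to the autophagosome membrane, Gabarap had a mean of 147 RPKM, Gabarapl1 of 77.6, Map1lc3a of 38.4, Map1lc3b of 17.5 and Gabarapl2 of 14.6. Gabarap and Gabarapl1 were thus read more often per length than Map1lc3b, which encodes the autophagy marker LC3B. The length is that of all annotated exons, 7517 bases for Map1lc3b and 1181 to 2325 for the other genes of this role. This order depends on that length, and in mean CPM Map1lc3b (131.9) lay above Map1lc3a (45.35). Of the catalytic AMPK subunits, Prkaa1 (16.0 RPKM) was above Prkaa2 (5.87 RPKM) in the mean over libraries. Of the initiating kinases, Ulk2 (16.4 RPKM) was above Ulk1 (9.09 RPKM).

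**Figure D2:**
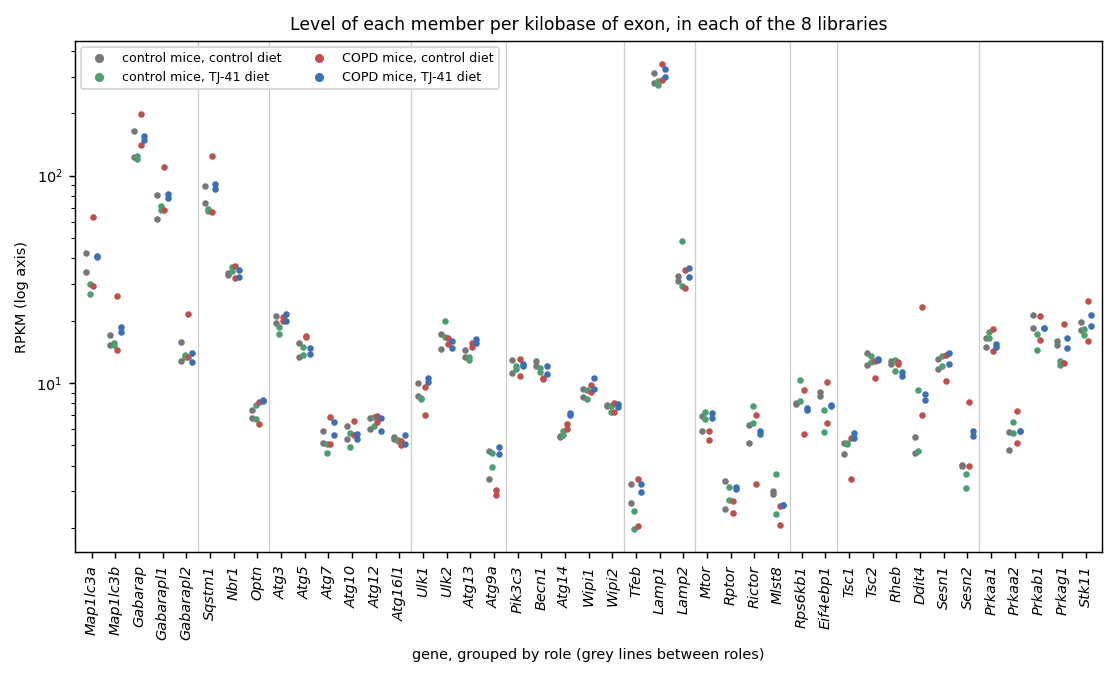
Level of each member in RPKM (vertical axis, logarithmic) in each of the 8 libraries (points, coloured by group), with genes in order of role along the horizontal axis. Lamp1, Gabarap, Sqstm1 and Gabarapl1 lie highest and Mlst8, Tfeb and Rptor lowest, and the 4 groups lie together for most genes apart from Ddit4.

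Values by library below are in CPM, which are not corrected for gene length, and are given as replicate 1 and then replicate 2. Among the ubiquitin-like proteins, Gabarap stood at 301 and 227 CPM in control mice on control diet, at 230 and 222 on TJ-41, at 258 and 365 in COPD mice on control diet, and at 273.5 and 286 on TJ-41. Map1lc3b stood at 128.5 and 115 CPM in control mice on control diet, at 118 and 115 on TJ-41, at 108.5 and 198 in COPD mice on control diet, and at 132 and 140 on TJ-41. For both genes the highest of the 8 libraries was replicate 2 of COPD mice on control diet, while replicate 1 of that group lay within the control mice on the same diet for Gabarap and below them for Map1lc3b. The 5 genes of this role all had a positive log2 fold change for COPD mice on control diet, between 0.24 and 0.33 with a median of 0.29, and the groups overlapped for each. Without replicate 2 of that group, 0 of 5 were higher and the median was -0.09. Without replicate 1 instead, 5 of 5 were higher and the median was 0.62, in a fit where the lone library left is assumed to vary like the other groups. On TJ-41, where both libraries of COPD mice resembled each other, 4 of 5 were higher with a median of 0.23, which was 0.0993 after correction for length and GC content. With TJ-41, 0 of 5 were higher in control mice (median -0.08, and 3 of 5 with a median of 0.01 without replicate 1 of control mice on control diet) and 0 of 5 in COPD mice (median -0.17), and the second of these medians was 0.23 without replicate 2 of COPD mice on control diet. In the fit of all groups, none of the 5 had an unadjusted p under 0.05 in any comparison. A fit of the groups on TJ-41 alone put 3 of the 5 under that limit, where 24.6% of genes were. In it Map1lc3a had a log2 fold change of 0.52 with an adjusted p of 0.0386 in edgeR, against 0.779 in the fit of all groups. The fit of these groups alone made no correction for length and GC content.

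LC3B was measured as a protein in the study, so its gene is given for the diet comparison as well. The log2 fold change of Map1lc3b with TJ-41 was -0.07 ± 0.25 (SE, n = 2 libraries in each group) in control mice, with a 95% interval of -0.63 to 0.50. In COPD mice it was -0.17 ± 0.25, with an interval of -0.73 to 0.40, and 0.33 without replicate 2 of the control-diet group. The groups overlapped in both.

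Cargo receptors bind what is to be degraded and link it to LC3. Sqstm1, which encodes p62, stood at 300 and 246 CPM in control mice on control diet, at 232 and 226 on TJ-41, at 224 and 418 in COPD mice on control diet, and at 290.5 and 304 on TJ-41. COPD mice on control diet thus held both the highest and the lowest library. On TJ-41 the libraries of COPD mice lay above those of control mice, with a log2 fold change of 0.38 ± 0.27 and an adjusted p of 0.785 from edgeR. Nbr1, a second receptor, varied little, with a coefficient of variation of 4.77% over the 8 libraries. Optn, which encodes optineurin, ranged from 23.7 to 31.1 CPM, and both libraries of COPD mice on TJ-41 lay above the other 6.

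The conjugation machinery attaches LC3 to lipid. Atg3, the enzyme of the last step, stood at 66.1 and 61.6 CPM in control mice on control diet, at 54.5 and 58.6 on TJ-41, at 65.5 and 62.8 in COPD mice on control diet, and at 63.1 and 67.6 on TJ-41. The libraries of control mice on TJ-41 were the lowest pair. The 6 genes of this role (Atg3, Atg5, Atg7, Atg10, Atg12 and Atg16l1) had log2 fold changes with a median of 0.07 for COPD mice on control diet and 0.04 on TJ-41. The first was -0.03 without replicate 2 of control mice and 0.175 without replicate 1. The medians with TJ-41 were -0.08 in control mice and -0.04 in COPD mice. Atg16l1, which positions the conjugation enzymes on the membrane, was the steadiest of all 43 members together with Wipi2, with coefficients of variation of 3.78% and 3.79%.

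Autophagy is initiated by the ULK kinases with ATG13, and ATG9A is the lipid scramblase of the vesicles that seed the membrane. Ulk2 stood at 86.9 and 103 CPM in control mice on control diet, at 99.7 and 119 on TJ-41, at 98.5 and 92.0 in COPD mice on control diet, and at 88.4 and 95.4 on TJ-41, and the groups overlapped except between control mice and COPD mice on TJ-41. Atg9a (chr1:75180860-75192196, GRCm38) stood at 19.9 and 27.0 CPM in control mice on control diet, at 26.6 and 22.6 on TJ-41, at 17.6 and 16.7 in COPD mice on control diet, and at 26.1 and 28.3 on TJ-41. Both libraries of COPD mice on control diet were below the other 6 libraries. The log2 fold change of Atg9a with TJ-41 in COPD mice was 0.67 ± 0.20 (SE, n = 2 libraries in each group), a 1.59-fold difference with an interval of 0.21 to 1.13 on the log2 scale, and its adjusted p in edgeR was 0.991. Leaving out any library gave 0.61 to 0.72. For COPD mice on control diet the log2 fold change was -0.45 ± 0.20, with an adjusted p of 0.657 in edgeR, and it was -0.22 without replicate 2 of control mice on control diet and -0.65 without replicate 1. The difference between the 2 diet effects on Atg9a was 0.60 ± 0.29, with an interval of -0.05 to 1.24. Of the 50-base stretches of the Atg9a transcripts, 30.5% also occur in transcripts of other genes, in part through 1832 exonic bases shared on the same strand with the annotated gene Gm29253, which is listed at 0 in all 8 libraries, so its level carries an uncertainty of assignment.

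**Figure D3:**
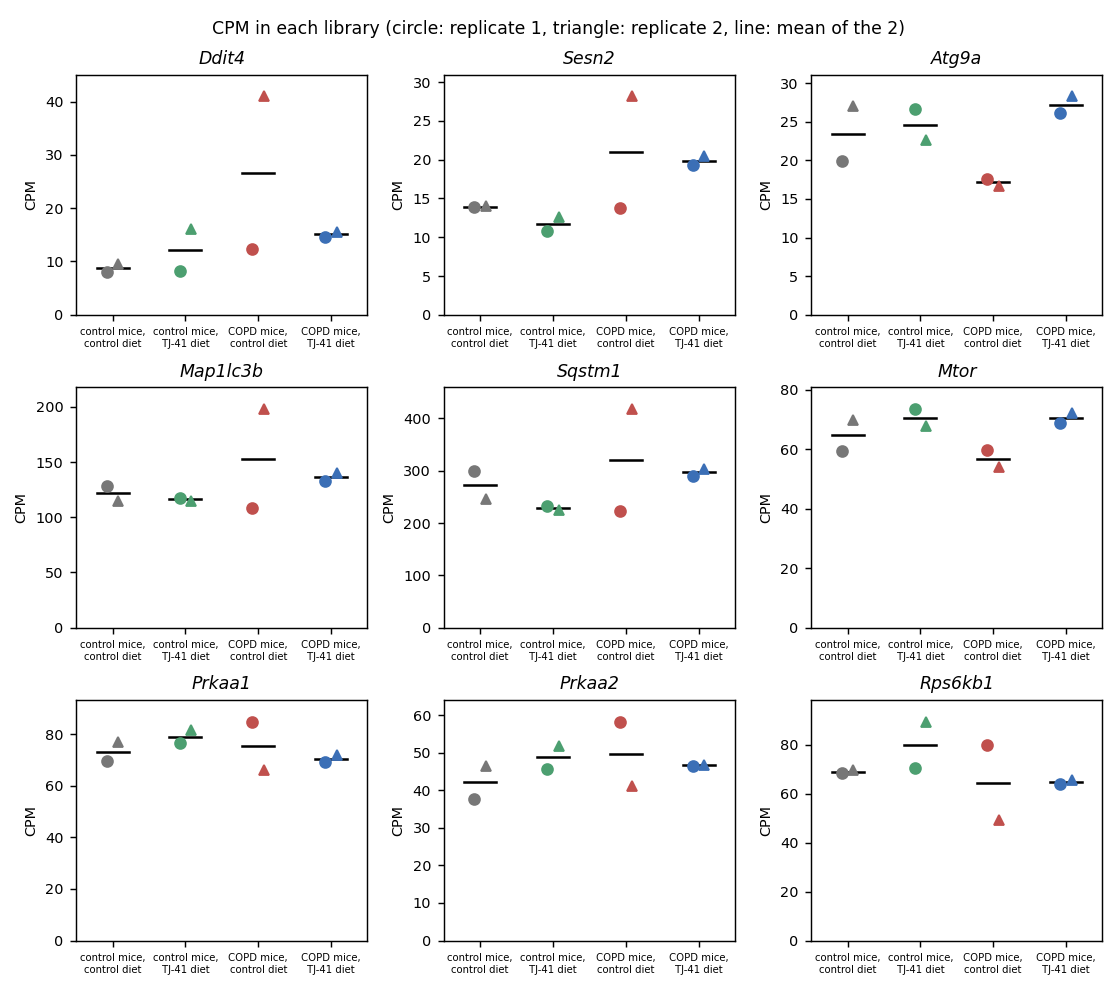
CPM (vertical axes, from 0) of 9 members in each of the 8 libraries by group, with circles for replicate 1, triangles for replicate 2 and a line for the mean of the 2. Replicate 2 of COPD mice on control diet is the highest point for Ddit4, Sesn2, Map1lc3b and Sqstm1 and the lowest for Atg9a, Mtor, Prkaa1 and Rps6kb1.

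The phosphatidylinositol 3-kinase complex marks the forming membrane with a lipid that the WIPI proteins read. Becn1, which encodes beclin 1, stood at 85.6 and 90.03 CPM in control mice on control diet, at 80.0 and 83.2 on TJ-41, at 73.8 and 74.5 in COPD mice on control diet, and at 77.8 and 84.9 on TJ-41. Its libraries in COPD mice on control diet were the lowest pair, with a log2 fold change of -0.24 ± 0.15 against control mice and an adjusted p of 0.783 in edgeR. Atg14, the subunit that directs the complex to autophagy, ranged from 23.6 to 30.8 CPM, and each library of COPD mice lay above each library of control mice. So did Atg13 (56.4 to 71.4 CPM), and these were the 2 of 43 members with that order over both diets (4.65% of members, against 3.35% of all tested genes). No member had the opposite order, against 3.43% of all tested genes. The log2 fold changes over both diets were 0.23 ± 0.11 for Atg14 and 0.21 ± 0.10 for Atg13, with adjusted p-values of 0.522 and 0.520 in edgeR.

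The lysosome completes the process, and TFEB is the transcription factor that drives lysosomal genes. Lamp1 stood at 836 and 749 CPM in control mice on control diet, at 761 and 730 on TJ-41, at 771 and 923 in COPD mice on control diet, and at 802 and 878 on TJ-41. Its groups overlapped on control diet and did not on TJ-41, where the log2 fold change for COPD mice was 0.17 ± 0.18. Tfeb itself was among the least abundant members, at 11.2 to 19.4 CPM. It was lower in control mice on TJ-41 than on control diet without overlap (log2 fold change -0.42 ± 0.27), and higher in COPD mice than in control mice on TJ-41 (0.51 ± 0.27), with adjusted p-values of 0.996 and 0.773 in edgeR. Lamp2, a second membrane protein of the lysosome, ranged from 274.5 to 344 CPM in 7 libraries and reached 460 in replicate 2 of control mice on TJ-41.

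TFEB binds the letters CACGTG, and the promoter of Lamp1 is printed because it carries them 4 times. Windows of 300 bases around annotated starts (RefSeq sequence, build GRCm38) were at hand for 37 of the 43 members. The E-box CACGTG, which reads the same on both strands, was in a window of 6 members, namely Atg3, Atg5, Atg7, Atg14, Lamp1 and Rheb, or 16.22% of the 37, against 8.09% of the 27025 genes with a window. Among 34 further lysosomal genes and TFEB targets, 12 of the 26 with a window held it (46.15%). That list was chosen to hold targets of the factor that binds these letters, so its share is no test. Among 25 further genes of the autophagy machinery, 2 of the 22 with a window held it (9.09%). The bases printed lie before the start at chr8:13158911-13159160 on the plus strand, 5′ to 3′, with each CACGTG in capitals. They begin 61, 45, 28 and 15 bases before the start.
Lamp1: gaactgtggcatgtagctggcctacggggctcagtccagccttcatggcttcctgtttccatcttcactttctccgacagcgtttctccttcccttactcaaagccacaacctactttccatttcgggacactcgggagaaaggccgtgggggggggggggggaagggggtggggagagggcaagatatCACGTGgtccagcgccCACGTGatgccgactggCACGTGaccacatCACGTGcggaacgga
These matches are a description of the letters. The 6 members with an E-box had log2 fold changes of 0.21 (Atg3), -0.01 (Atg5), 0.32 (Atg7), 0.30 (Atg14), 0.17 (Lamp1) and -0.13 (Rheb) for COPD mice on TJ-41, none of them called. In the same order they were -0.17, -0.01, -0.19, 0.06, -0.09 and -0.04 for TJ-41 in control mice, again none called.

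MTOR is the kinase of both mTOR complexes, with RPTOR in mTORC1, RICTOR in mTORC2 and MLST8 in both. Mtor stood at 59.5 and 69.9 CPM in control mice on control diet, at 73.5 and 67.8 on TJ-41, at 59.7 and 53.9 in COPD mice on control diet, and at 68.9 and 72.2 on TJ-41. In COPD mice the TJ-41 libraries lay above the control-diet libraries, whereas the groups overlapped in control mice. The log2 fold change of Mtor with TJ-41 was 0.31 ± 0.16 in COPD mice (interval -0.04 to 0.67) and 0.13 ± 0.16 in control mice (interval -0.23 to 0.48), with adjusted p-values of 0.991 and 0.996 in edgeR. The difference between the 2 was 0.19 ± 0.22. Leaving out any library gave 0.242 to 0.391 in COPD mice and 0.0122 to 0.243 in control mice. Rictor stood at 87.3 and 106 CPM in control mice on control diet, at 108 and 132 on TJ-41, at 119 and 55.1 in COPD mice on control diet, and at 99.2 and 95.9 on TJ-41, so that the lowest library was again replicate 2 of COPD mice on control diet. All 4 genes of the mTOR complexes had a positive log2 fold change with TJ-41 in control mice (median 0.07) and in COPD mice (median 0.23), and 0 of 4 for COPD mice on control diet (median -0.19). These medians were 0.09, 0.13 and -0.09 once gene length and GC content were corrected for, with 4, 4 and 0 of the 4 genes higher. In control mice 2 of 4 were higher without replicate 1 of either diet, and in COPD mice 3 of 4 without replicate 2 of the control-diet group. The median of -0.19 was -0.04, with 1 of 4 higher, without replicate 2 of control mice on control diet. None was called.

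Of the mTORC1 substrates, Rps6kb1 encodes S6 kinase, whose phosphorylation is the usual readout of mTORC1. It stood at 68.4 and 69.7 CPM in control mice on control diet, at 70.6 and 89.3 on TJ-41, at 79.8 and 49.2 in COPD mice on control diet, and at 64.1 and 65.5 on TJ-41. Both TJ-41 libraries of control mice lay above the control-diet libraries, by 0.21 ± 0.23 on the log2 scale, but after correction for length and GC content the value was -0.02. In COPD mice the log2 fold change of Rps6kb1 with TJ-41 was 0.01 ± 0.23, with an interval of -0.51 to 0.52, with -0.30 when replicate 2 on control diet was left out and 0.40 when replicate 1 was. Eif4ebp1, which encodes the translation repressor 4E-BP1, ranged from 12.8 to 22.3 CPM and was called in none of the comparisons.

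The inputs to mTORC1 held the largest differences of the 43 genes. DDIT4, also called REDD1, is induced by stress, hypoxia and glucocorticoids and acts through the TSC complex. Ddit4 (chr10:59949669-59951834, GRCm38) stood at 8.06 and 9.61 CPM in control mice on control diet, at 8.25 and 16.2 on TJ-41, at 12.3 and 40.97 in COPD mice on control diet, and at 14.6 and 15.6 on TJ-41. Both libraries of COPD mice on control diet lay above those of control mice on that diet, with replicate 2 far above all others. The log2 fold change was 1.59 ± 0.51 (SE, n = 2 libraries in each group), a 3.02-fold difference, with an interval of 0.45 to 2.73 and an adjusted p of 0.462 in edgeR. Without replicate 2 of that group it was 0.48, and without replicate 1 it was 2.21 with an adjusted p of 0.0032 in edgeR. On TJ-41 the log2 fold change for COPD mice was 0.31 ± 0.50. With TJ-41 in COPD mice it was -0.82 ± 0.49, and 0.29 without replicate 2 of the control-diet group. The difference between the 2 diet effects on Ddit4 was -1.28 ± 0.70, with an interval of -2.87 to 0.31, and ranged from -1.89 to -0.16 when each library was left out. The 10 genes of the glucocorticoid response list summed to 882 and 1398 CPM in the 2 libraries of COPD mice on control diet and to 650 to 1118 CPM in the other 6, so their highest sum was in the same library as that of Ddit4. Their part in the result was not tested.

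Sestrin 2, the product of Sesn2, is a stress-induced leucine sensor that restrains mTORC1. Sesn2 (chr4:132492032-132510501, GRCm38) stood at 13.9 and 13.97 CPM in control mice on control diet, at 10.8 and 12.7 on TJ-41, at 13.8 and 28.2 in COPD mice on control diet, and at 19.3 and 20.5 on TJ-41. On TJ-41 COPD mice lay above control mice without overlap, and on control diet 1 of its libraries was high and the other level with control mice. The log2 fold change was 0.76 ± 0.30 on TJ-41 (1.69-fold, interval 0.08 to 1.45, adjusted p = 0.721 in edgeR). It was 0.59 ± 0.30 on control diet (interval -0.09 to 1.27), and -0.01 there without replicate 2. On TJ-41, leaving out any library gave 0.66 to 0.88. A fit of the 2 groups on TJ-41 alone gave Sesn2 an adjusted p of 0.0364 in edgeR at a log2 fold change of 0.76, and in that fit 248 of 19809 genes (1.25%) and 0 members were called.

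With both diets together, the log2 fold change for COPD mice was 0.68 ± 0.21 for Sesn2 and 0.95 ± 0.35 for Ddit4, with adjusted p-values of 0.290 and 0.388 in edgeR. These were the 2 of 43 members at an unadjusted p under 0.05 (4.65%, against 10.4% of all tested genes). Of all tested genes 0.443% were called over both diets, and of the members 0. With both kinds of mouse together, TJ-41 gave 1 member at an unadjusted p under 0.05, Atg9a at 0.37 ± 0.14, against 2.48% of genes, and 0 members called, against 0% of genes.

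The promoters of Ddit4 and Sesn2 are printed because these genes had the largest coefficients of variation over the 8 libraries, 68.2% and 34.2%. Both windows hold the CCAAT box, searched on both strands as CCAAT or ATTGG, 2 times each. It was in a window of 11 of the 37 members (29.73%), against 41.06% of the 27025 genes. The CARE motif TGATGNAA, a binding sequence of the stress factor ATF4 searched on both strands, was in a window of 0 of the 37 members, against 4.51% of genes. The bases printed lie before the first annotated exon base, at chr10:59951835-59952020 and chr4:132510502-132510706, both on the minus strand of GRCm38, 5′ to 3′, with ATTGG in capitals.
Ddit4: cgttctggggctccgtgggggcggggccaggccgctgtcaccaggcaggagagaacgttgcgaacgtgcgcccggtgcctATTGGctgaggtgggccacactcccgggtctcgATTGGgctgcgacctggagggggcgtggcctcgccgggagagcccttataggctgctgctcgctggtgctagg
Sesn2: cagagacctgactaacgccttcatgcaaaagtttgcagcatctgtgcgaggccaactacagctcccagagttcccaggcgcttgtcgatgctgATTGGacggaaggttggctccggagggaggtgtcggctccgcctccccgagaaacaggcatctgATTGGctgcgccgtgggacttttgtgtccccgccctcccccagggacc

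The other inputs to mTORC1 differed less. Tsc2, which with Tsc1 forms the complex that switches off the activator RHEB, stood at 117 and 134 CPM in control mice on control diet, at 129 and 122 on TJ-41, at 101 and 123 in COPD mice on control diet, and at 126 and 125 on TJ-41, and in COPD mice both TJ-41 libraries were above both control-diet libraries. Tsc1 ranged from 40.8 to 67.9 CPM, with the lowest value in replicate 2 of COPD mice on control diet. Rheb ranged from 83.6 to 99.7 CPM and Sesn1, a second sestrin, from 40.6 to 55.8 CPM. None of these 4 had an absolute log2 fold change above 0.34 in the 4 comparisons between groups.

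AMPK has a catalytic α subunit (Prkaa1 or Prkaa2), a scaffold (Prkab1) and a nucleotide-binding subunit (Prkag1), and is activated by LKB1, the product of Stk11. Prkaa1 stood at 69.7 and 76.7 CPM in control mice on control diet, at 76.4 and 81.6 on TJ-41, at 84.6 and 66.2 in COPD mice on control diet, and at 69.2 and 71.7 on TJ-41. Prkaa2 stood at 37.8 and 46.5 CPM in control mice on control diet, at 45.7 and 51.8 on TJ-41, at 58.1 and 41.02 in COPD mice on control diet, and at 46.6 and 46.8 on TJ-41. For both genes the TJ-41 libraries overlapped with those of control diet in both kinds of mouse. The log2 fold change with TJ-41 in control mice was 0.11 ± 0.17 for Prkaa1 (interval -0.27 to 0.49) and 0.21 ± 0.20 for Prkaa2 (interval -0.25 to 0.67). After correction for length and GC content the values were -0.06 and 0.01. In COPD mice they were -0.10 ± 0.17 for Prkaa1 (interval -0.48 to 0.28) and -0.09 ± 0.20 for Prkaa2 (interval -0.54 to 0.37), and without replicate 1 of the control-diet group they were 0.0934 and 0.19.

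Stk11 stood at 82.3 and 90.7 CPM in control mice on control diet, at 83.6 and 77.7 on TJ-41, at 73.3 and 114 in COPD mice on control diet, and at 97.6 and 86.5 on TJ-41. Its highest and lowest libraries were the 2 of COPD mice on control diet. Prkab1 and Prkag1 were lower in control mice on TJ-41 than on control diet without overlap, with log2 fold changes of -0.33 ± 0.19 and -0.31 ± 0.22 and adjusted p-values of 0.996 for each in edgeR. With TJ-41 in COPD mice, 0 of the 5 genes of AMPK and LKB1 were higher, with values between -0.10 and -0.01. When scaled by library size alone 3 of 5 were higher (median 0.03), as were 3 of 5 without replicate 2 of the control-diet group (median 0.20), while 2 of 5 were without replicate 1 (median -0.19).

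Replicates of COPD mice on control diet resembled each other least. The difference between the 2 libraries of that group had a standard deviation over the members of 0.54 on the log2 scale, against 0.10 to 0.26 in the other 3 groups. In replicate 2 of that group 12 of 43 members lay more than 0.5 log2 units from the mean of the other 7 libraries, against 0 to 3 members in any other library. The 8 above were the 5 ubiquitin-like genes, Sqstm1, Ddit4 and Sesn2, by 0.52 to 1.81. The 4 below were Atg9a, Tsc1, Rps6kb1 and Rictor, by -0.94 to -0.51. The 8 had exonic lengths of 1181 to 7517 bases and the 4 of 5762 to 16930 bases. Across the 43 members, which share the library and its depth, the deviation in that library had a Pearson correlation of -0.67 with the log2 exonic length and of 0.47 with GC content, given as a description across genes. Replicate 1 of the group had -0.77 with GC content. The part of transcript length and composition in these differences was not tested. For COPD mice on control diet, the correction for both turned the sign of 5 of the 43 members. In that comparison the corrected log2 fold change was 1.44 for Ddit4 and 0.56 for Sesn2.

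**Figure D4:**
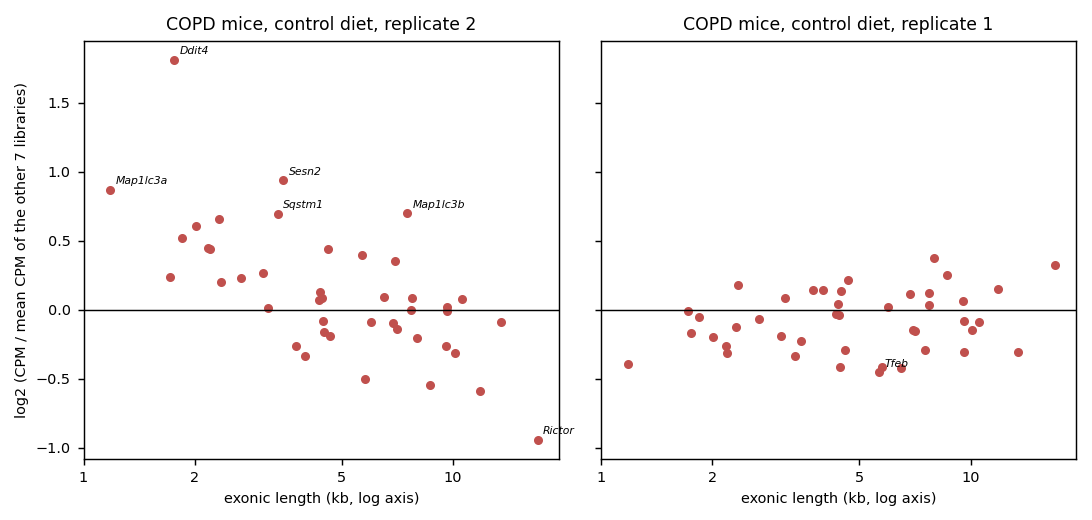
Log2 ratio of each member's CPM to its mean in the other 7 libraries (vertical axis) against exonic length in kilobases (horizontal axis, logarithmic), for replicate 2 (left) and replicate 1 (right) of COPD mice on control diet. Ddit4 is highest at 1.81 and Rictor lowest at -0.94 in replicate 2, where shorter genes lie higher (Pearson r = -0.67), whereas r was 0.23 in replicate 1.

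The direction of many members rested on this library. Without it, 17 of the 43 members had the opposite sign for COPD mice on control diet, 18 of 43 had the opposite sign for TJ-41 in COPD mice, and 0 of 43 were called in either. Without replicate 1 instead, 13 and 7 members had the opposite sign, and 2 (Ddit4 and Sesn2) and 1 (Ddit4) were called in edgeR, or 4.65% and 2.33% of members, against 6.28% and 3.41% of all genes in that fit. The group was then represented by replicate 2 alone and assumed to vary like the other groups.

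**Figure D5:**
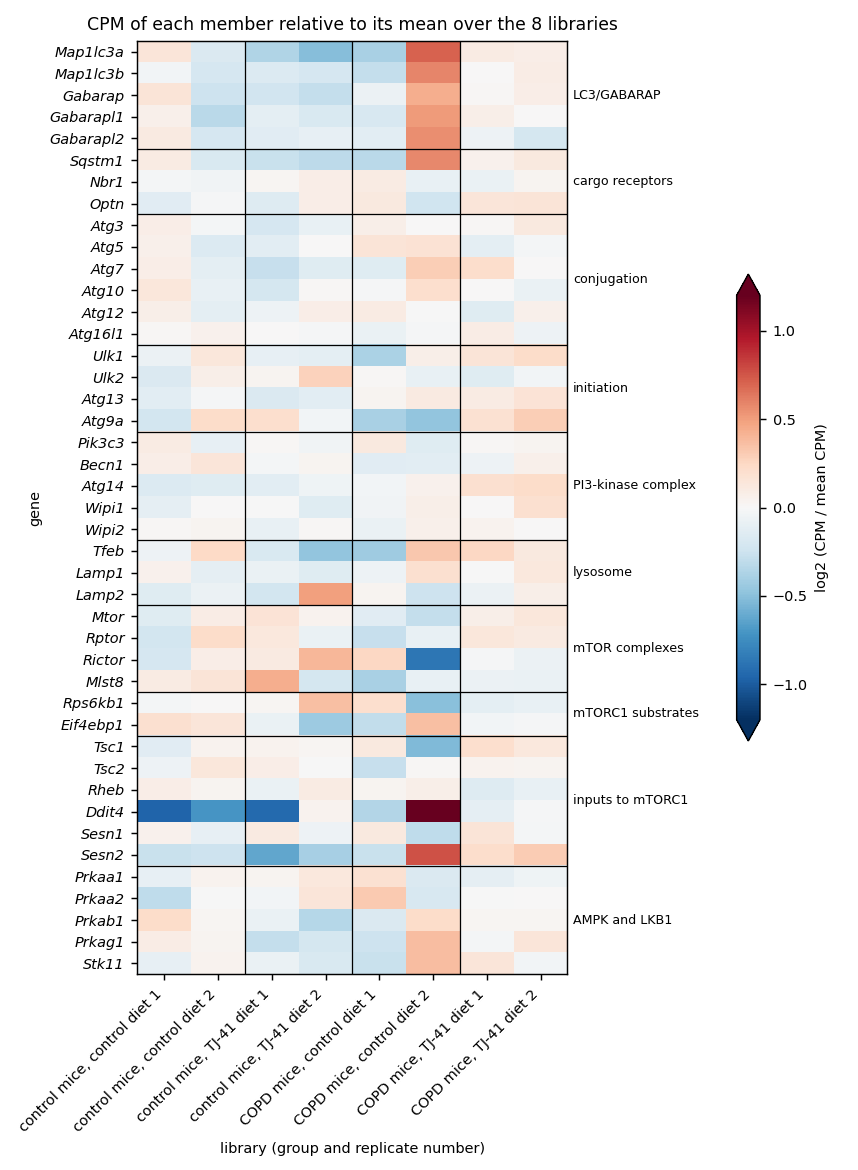
Log2 ratio of each member's CPM to its mean over the 8 libraries (colour, red higher and blue lower, with the scale ending at 1.2 in either direction) for the 43 members in rows by role and the 8 libraries in columns by group. Replicate 2 of COPD mice on control diet is the column with the strongest colours, and the 2 libraries of COPD mice on TJ-41 resemble each other.

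For COPD mice on control diet 25 of 43 members were higher (19 of 43 when scaled by library size alone), with a median log2 fold change of 0.02 against 0.01 over all tested genes. For TJ-41 17 of 43 were higher in control mice (median -0.03 against -0.002 over all genes) and 22 of 43 in COPD mice (27 by library size alone, median 0.01 against -0.01). The largest shift was for COPD mice on TJ-41, where 28 of 43 were higher (33 by library size alone) with a median of 0.13 against -0.002. After correction for length and GC content, 37 of 43 were higher in that comparison, with a median of 0.125. Leaving out any library kept the uncorrected median between 0.102 and 0.145.

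The libraries of the groups compared did not overlap for 20 members that were higher in COPD mice on TJ-41 (46.5% of members, against 28.5% of all tested genes) and for 5 that were lower (11.6%, against 27.9%). On control diet the same held for 4 higher and 4 lower members (9.3% each, against 13.6% and 14.1% of genes). For TJ-41 in control mice, 4 members were higher and 12 lower without overlap (9.3% and 27.9%, against 19.1% and 19.1% of genes). For TJ-41 in COPD mice, 10 were higher and 2 lower (23.3% and 4.65%, against 14.1% and 14.9% of genes). Comparisons on the same diet or in the same mice share libraries, so these counts are not independent of each other. The GC content of the members had a Pearson correlation with the deviation of 0.69 and 0.54 in the 2 libraries of COPD mice on TJ-41 and of -0.19 and -0.65 in those of control mice on that diet.

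Beyond the members, other genes of the same pathways were counted from lists. Of 25 further genes of the autophagy machinery 0 were called in any comparison, with 14 higher for COPD mice on control diet, 15 on TJ-41, 11 with TJ-41 in control mice and 15 with it in COPD mice. The 14 tested genes of other selective autophagy receptors, the 43 of the wider mTOR pathway and the 23 of the wider AMPK pathway likewise gave 0 called genes in each of the 5 comparisons. At an unadjusted p under 0.05 were 0, 0, 0 and 1 of the 25 further autophagy genes in the 4 comparisons between groups in turn, and 2, 3, 0 and 2 of the 43 genes of the wider mTOR pathway, against 7.7%, 6.56%, 1.64% and 4.1% of all tested genes. The 14 other receptors gave 0 in each of these. Of the 23 genes of the wider AMPK pathway, 2 were under this limit for COPD mice on control diet, both higher. For COPD mice on TJ-41 2 were higher and 1 lower, and with TJ-41 it was 0 in either kind of mouse.

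The lysosome list, of 34 genes beside Lamp1 and Lamp2, had positive log2 fold changes in COPD mice for most of its genes. On TJ-41 32 of 34 had a positive log2 fold change, with a median of 0.36. Of these genes 9 were at an unadjusted p under 0.05, all higher, against 6.56% of all tested genes, and 0 were called. With both diets together 1 (Gpnmb) was called in edgeR, against 0.443% of all tested genes. In that fit 11 were at an unadjusted p under 0.05, all higher, against 10.4%. On control diet 28 of 34 were higher with a median of 0.15, and 14 of 34 with a median of -0.03 without replicate 2 of COPD mice. The median on TJ-41 was 0.37 without that library, which is not one of the libraries of that comparison. With TJ-41 9 of 34 were higher in control mice (median -0.13) and 25 of 34 in COPD mice (median 0.12). The last of these rested on single libraries, with 12 of 34 higher (median -0.09) without replicate 1 of COPD mice on control diet, 32 of 34 (median 0.32) without replicate 2, and 20 of 34 (median 0.05) without replicate 2 of COPD mice on TJ-41. The list of 19 macrophage markers had the same sign, with a median of 0.52 and 15 of 19 higher for COPD mice on TJ-41, and none of its genes was at 0 in all libraries. Its summed level was 7826 to 10810 CPM in control mice on control diet, 7449 to 8606 on TJ-41, 10440 to 13240 in COPD mice on control diet and 10920 to 11800 on TJ-41. In whole lung, more cells of a type and more RNA per cell cannot be told apart, and the part of macrophages in the lysosomal values was not tested.

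Lists of other tissues differed in summed level with the diet in COPD mice. The 12 heart muscle markers summed to 752 and 880 CPM on control diet and to 443 and 366 CPM on TJ-41. Of the 12, 11 were at an unadjusted p under 0.05, all lower, against 4.1% of all tested genes, and 0 were called. The 7 tested red cell genes had a median log2 fold change of -1.23 (-0.81 without replicate 2 of the control-diet group), with 4 at an unadjusted p under 0.05, again against 4.1%. They summed to 1943 and 3758 CPM on control diet and to 990 and 1201 CPM on TJ-41. Their part in the values of Atg9a, Mtor and the other members in that comparison was not tested. In COPD mice the clock list gave 8 called genes of 18 on each diet, against 0.122% of all tested genes on control diet and 0.0779% on TJ-41.

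Assignment of reads limits some members. Of the 50-base stretches of their transcripts, 36.8% were shared with other genes for Becn1, 28.8% for Prkag1, 23.1% for Gabarapl1, 16.4% for Mlst8, 15.5% for Sqstm1 and 12.2% for Gabarapl2. Whether the counting used strand is not given in the sources used here. Becn1 shares 3104 exonic bases with Cntd1 and Tsc2 shares 693 exonic bases with Pkd1, each on the opposite strand, so without strand their reads could not be told apart there.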

How the data were processed

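RNA from whole lung was sequenced in 8 libraries, grouped by their labels, which write the diet as TJ41 or TJ4, both read here as TJ-41. For each library the authors deposited 1 table of raw counts for Ensembl genes, in whole numbers and not normalized. The submitters' processing notes name HISAT2, edgeR and the build mm10, while the methods name CLC Genomics Workbench, and the counting program, annotation release and strand setting are not given in the sources used here. Of the 52636 identifiers, 52489 were found in GENCODE M21 of the same build, which gave names, positions and exonic lengths.

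Counts were analysed in R 4.3.3 with edgeR 4.0.16. Genes were kept by filterByExpr (minimum count 10, minimum total 15), normalized by TMM and tested with the quasi-likelihood test over all 4 groups (4 residual degrees of freedom) with Benjamini-Hochberg adjustment over 20546 genes. CPM were computed with TMM library sizes, and RPKM from CPM and exonic length. Standard errors were the absolute log2 fold change over the root of F, and 95% intervals from the t distribution of the fit. DESeq2 1.42.0 and the alternatives described in the closing section were also run, and the procedure was tested on simulated data.

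The members and gene lists were chosen with earlier results of these data known. Values by library are given for members at an unadjusted p under 0.05 in a comparison, for genes of proteins the study measured and Mtor, and for the most abundant member of each role. The genes and motifs of the printed promoters were chosen after the values were seen. The 2 libraries of a group differed by 11.9 to 88.1 times the counting variance, so none was a copy.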

Additional observations from a re-analysis of the deposited data

How the results depend on the processing

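No member was called under any of these alternatives, where each could be run: another normalization, other filters, the edgeR exact test, a fit of the groups compared alone, the adjusted p alone, both diets or both kinds of mouse together, and the correction for length and GC content. The exact test and the groups alone were not run for the difference between the diet effects. The exceptions were 1 member for COPD mice on control diet with DESeq2 (Ddit4, log2 fold change 1.59), and up to 2 members when libraries were left out. Leaving out each library gave 0 to 2 called members for COPD mice on control diet, 0 to 1 for TJ-41 in COPD mice, and 0 in the other 3 comparisons.

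Counts at an unadjusted p under 0.05 moved more. For COPD mice on control diet, library size alone gave 2 members, both diets together 2, the length and GC correction 3, and leaving out a library 1 to 13. On TJ-41, a fit of the groups compared alone gave 13, the correction 3 and leaving out a library 0 to 9. For TJ-41 in control mice, the groups alone gave 3, both models together 1 and leaving out a library 0 to 5. In COPD mice leaving out a library gave 0 to 14. For the difference between the diet effects, DESeq2, all genes with a count and the correction each gave 1, and leaving out a library 0 to 11. The 13 and 14 of 43 members stood beside 31.4% and 27.2% of all genes in the same fits, without replicate 1 of COPD mice on control diet, and the 13 of the groups alone beside 24.6%. The 9, 5 and 11 stood beside 17.9% to 18%, 8.28% to 8.35% and 20%. The highest counts of leaving out came without a library of COPD mice on control diet, the group with the widest spread. Its remaining library stayed in the fit but added nothing to the estimate of the spread. The cause of the higher counts was not tested.

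The median log2 fold change of the members moved by less than the spread between replicates (0.07) from its value with all libraries, except when a library of COPD mice on control diet was left out. Over all libraries left out it ranged from -0.00558 to 0.123 for TJ-41 in COPD mice and from 0.016 to 0.18 for the difference between the diet effects.

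The length and GC correction turned the sign of 5, 11, 7, 4 and 11 of the 43 members in the 5 comparisons in turn, among them Prkaa1 (-0.0618) and Rps6kb1 (-0.0235) with TJ-41 in control mice. Leaving out libraries gave log2 ranges that cross 0 for Sesn2 (-0.00756 to 1.01) and Map1lc3b (-0.16 to 0.70) in COPD mice on control diet, and for Map1lc3b with TJ-41 in control mice (-0.15 to 0.0138). They did so too for Ddit4 (-1.44 to 0.29), Prkaa1 (-0.265 to 0.0934), Prkaa2 (-0.32 to 0.19), Rps6kb1 (-0.30 to 0.40) and Map1lc3b (-0.535 to 0.328) with TJ-41 in COPD mice. Ddit4 in COPD mice on control diet ranged from 0.48 to 2.21. The cause was not tested.

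The replicate numbers did not pair libraries (correlations of replicate differences between groups from -0.23 to 0.11). With the number as a replicate block, 0 members were called in each comparison and 1, 1, 0, 1 and 0 were at an unadjusted p under 0.05, as without it. With 2 libraries in each group, precision is limited by the spread between libraries and not by depth.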
